A study of Mus musculus with 8 samples.

Results

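The interferon response and MHC class I set comprised 41 genes, chosen by name from 26894 genes with a symbol in the deposited table, and each was followed in islets of βUCP2Tg mice (n = 4) and wild-type (WT) mice (n = 4). For each gene the probe with the highest mean over the 8 normalized columns was used, and all 41 passed the filter on dim probes, 40 of them well above background on all 8 arrays and *Oas3* on 7. None of the 41 genes passed the test between the genotypes, which 0.482% of all 17857 genes tested passed. The 4 WT samples, by contrast, were far apart from each other: WT 2 exceeded WT 1 by between 2.23-fold for *H2-K1* and 64.7-fold for *Ifit2*, with a median of 17.4-fold. Without WT 1, the lowest and highest of the other 3 WT samples differed by a median of 5.12-fold, and by 1.73-fold for *H2-K1*. All 41 genes put the WT samples in the same order, with WT 1 lowest, followed by WT 4, WT 3 and WT 2, and for 40 of the 41 the 4 βUCP2Tg samples lay within the WT range, as they did for 28.8% of all genes.

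Interferons are secreted by cells that sense viral nucleic acid or other danger signals, and they act through cell surface receptors, JAK kinases and STAT transcription factors. A complex with STAT2 and IRF9 binds the interferon-stimulated response element (ISRE) in the promoters of its targets, and gamma-activated sites (GAS) are a further element of interferon-responsive promoters. The targets include sensors of viral RNA, enzymes and membrane proteins that block viral replication, guanosine triphosphatases (GTPases) that attack intracellular parasites, and the machinery that loads peptides onto MHC class I molecules for display to cytotoxic T cells. In pancreatic islets a raised interferon signature and overexpression of class I molecules are known features of autoimmune diabetes.

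UCP2 is a protein of the mitochondrial inner membrane, and the study asked how its overexpression in β-cells changes gene expression in islets. The βUCP2Tg mice carry mouse *Ucp2* cDNA behind a rat *Ins2* promoter and a rabbit β-globin intron, on a C57BL6/J background, and the controls were their WT littermates without the transgene. All samples came from male mice. No age is given in the labels, and the methods give only a range of ages for islet isolation in general. The islets of both genotypes were kept for 8 h in medium with 200 mg/dL glucose before RNA extraction. Each sample was hybridised to a single-colour Agilent mouse array, and the sources do not settle whether a sample was 1 mouse or a pool, so the p-values measure the spread between these samples. The 8 arrays shared 1 slide whose rows each held a single genotype, so slide position and genotype cannot be told apart.

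Levels below are processed spot intensities on the log2 scale, less that array's 75th percentile, so that 0 is the signal at that percentile. *Ucp2* set every βUCP2Tg sample apart from every WT sample, with levels of 7.71, 7.5, 7.33 and 6.99 in βUCP2Tg 1 to 4. In WT 1 to 4 it was 1.18, 0.92, 1.03 and 1.46, a log2 fold change of 6.24 (limma, adjusted p = 9.32e-06). The β-cell genes *Ins1* and *Ins2* lay between 8.25 and 8.77 and between 9.0 and 9.37 over the 8 arrays. Before scaling, the 75th percentile lay between 8.78 and 8.89 on the log2 scale in WT and between 9.0 and 9.16 in βUCP2Tg, between 33191 and 36320 probes per array were well above background, and no spot was saturated. WT 1 and WT 3 each had 2 of 10 scanner quality metrics out of range and the other arrays none. Over the whole table, 73 probes were called higher and 72 lower in βUCP2Tg, and leaving out WT 1 made this 1787 and 1972, while leaving out βUCP2Tg 4 made it 349 and 1118. Without WT 2, WT 3 or WT 4 the calls were 23 and 2, 15 and 0, and 18 and 6, and without βUCP2Tg 1, 2 or 3 they were 8 and 0 each.

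The RefSeq promoter windows, which run from 250 bases before to 50 bases after each gene's start on GRCm38.p6, were available for 32 of the 41 genes. The core letters of the ISRE, GAAANNGAAA on either strand, were found for 16 of these 32 genes (50%), against 3.99% of all 27025 genes with a window and 3.81% of the 12987 that were tested. The GAS letters TTCNNNGAA, which read the same on both strands, were found in 9 of the 32 (28.1%), against 9.55% of all genes with a window. A match of letters is a description and not a bound site. The windows below show, for each role set, up to 3 genes with an ISRE match before the start and the largest distance between WT 1 and WT 2. They are written 5′ to 3′ on the strand of the gene with the matching bases in capitals.
*Stat2*, chr10:128270264-128270297, plus strand: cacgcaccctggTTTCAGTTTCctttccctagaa
*Ifit3*, chr19:34583361-34583428, plus strand: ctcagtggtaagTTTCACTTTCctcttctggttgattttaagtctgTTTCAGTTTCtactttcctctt
*Rsad2*, chr12:26456551-26456584, minus strand: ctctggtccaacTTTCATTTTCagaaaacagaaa
*Isg15*, chr4:156200863-156200908, minus strand: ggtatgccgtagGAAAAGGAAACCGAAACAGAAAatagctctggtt
*Gbp3*, chr3:142559987-142560026, plus strand: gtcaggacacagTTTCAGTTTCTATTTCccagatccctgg
*Gbp2*, chr3:142620592-142620625, plus strand: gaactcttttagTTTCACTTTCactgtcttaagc
*Igtp*, chr11:58199510-58199543, plus strand: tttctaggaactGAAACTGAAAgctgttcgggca
*B2m*, chr2:122147536-122147569, plus strand: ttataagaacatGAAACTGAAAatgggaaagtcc
The *Isg15* window held 3 overlapping matches, *Gbp3* held 2 that overlap and *Ifit3* held 2 separate ones. The matches in *Isg15*, *Igtp* and *B2m* read GAAA on the strand of the gene, and those of the other 5 read on the opposite strand. The log2 distance from WT 1 to WT 2 had a median of 4.40 (2.70 to 5.92) over the 16 genes with an ISRE match and 2.69 (1.16 to 6.02) over the 16 without one. For the GAS letters the median was 3.7 over the 9 genes with a match and 3.97 over the 23 without one. These splits were not tested. Genes without an ISRE match in their window included *Ifit2*, which had the widest distance of all, and the class I heavy chains *H2-K1* and *H2-D1*, at 1.16 and 1.4.

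No gene of the set passed the threshold between the genotypes. A call needed more than a 1.5-fold difference beside an adjusted p under 0.05 (limma). Of the 41 genes 0 were called, where 0.482% of all 17857 genes tested were called. An unadjusted p under 0.05 was reached by 0 of 41, against 24.5% of all genes, and the methods' t-test gave 0 of 41 as well, against 23.1% before adjustment and 0.0952% after it. The lowest unadjusted p was 0.197, for *Bst2*, and adjusted p-values ran from 0.407 to 0.999. For 0 of 41 were the groups free of overlap, against 13.1% of all genes.

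The direction of the differences depended on WT 1. The log2 fold change (βUCP2Tg minus WT) had a median of 0.56 over the 41 genes and 0.026 over all genes tested, and it was above 0 for 39 of the 41, against 54% of all genes. It ran from −0.20 for *Irf1* to 1.42 for *Iigp1*, and *H2-K1* was the other gene below 0. The value of *Oas3*, whose probe was not well above background on WT 1, is not exact and could lie higher. Without WT 1 the median was −0.072 and 27 of 41 values were below 0, without both WT 1 and βUCP2Tg 4 it was −0.14 with 28 below 0, and without WT 2 it was 1.08 with none below 0. It was 0.93 without WT 3 and 0.35 without WT 4, with 40 and 34 values above 0. All 41 of the 95% intervals held 0 and 37 of them reached past 1.5-fold in both directions. The interval of *H2-K1* did not reach a 1.5-fold rise, and those of *Ifi27*, *Tapbp* and *Psmb9* did not reach a 1.5-fold fall.

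**Figure D1:**
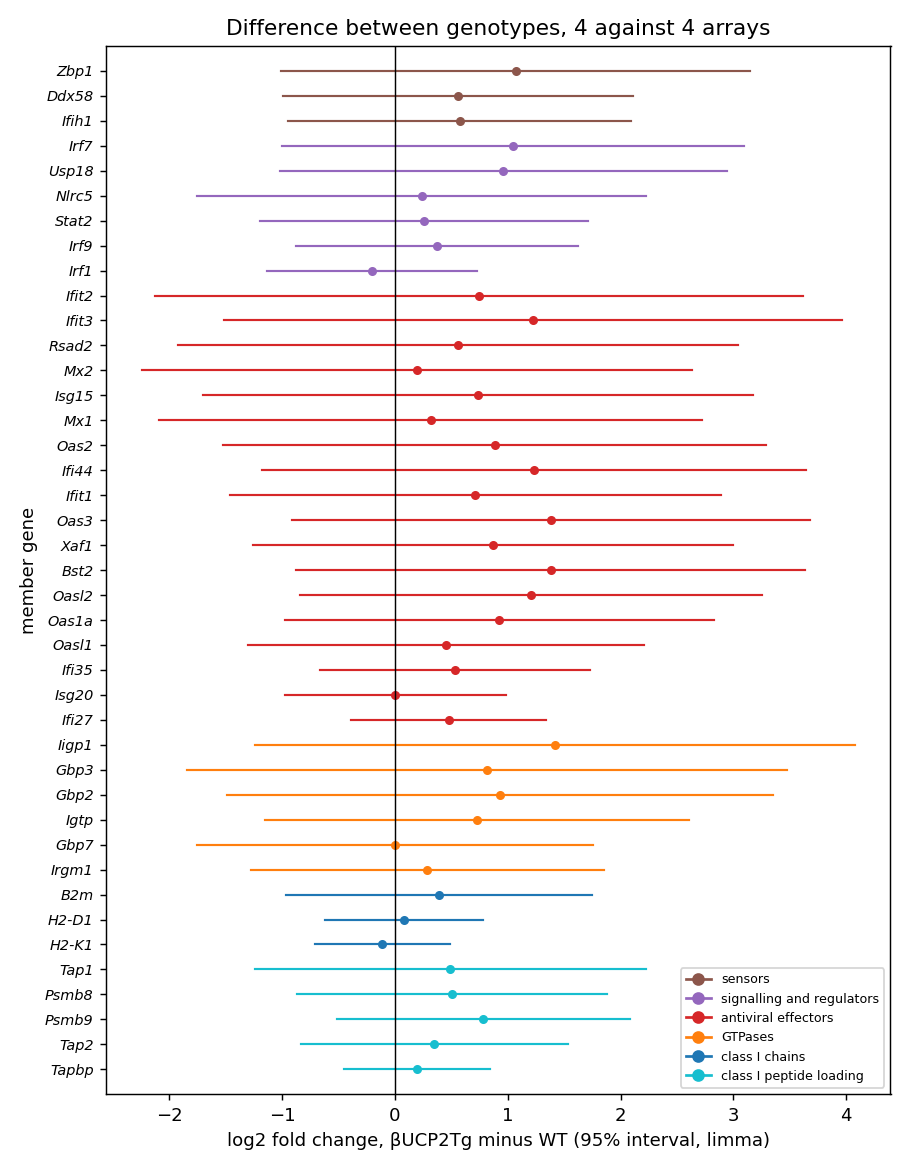
Log2 fold change of each of the 41 genes, βUCP2Tg minus WT (points), with 95% intervals from limma (lines) on 4 against 4 arrays, grouped and coloured by role. Most points lie right of 0, and every interval crosses 0.

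**Figure D2:**
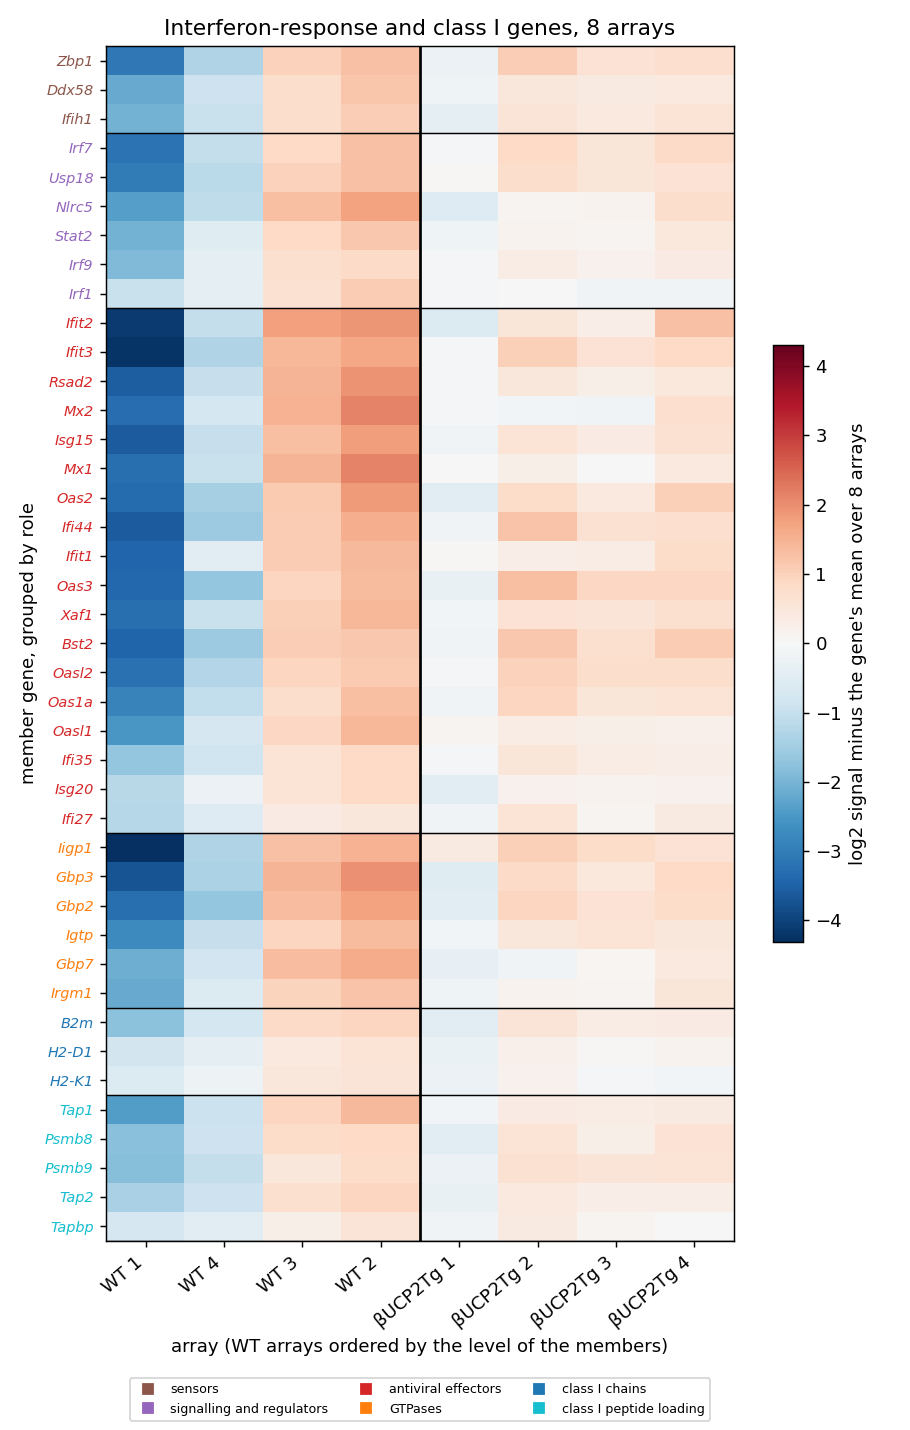
Level of each gene on each array as log2 signal minus the mean of that gene over the 8 arrays (blue lower, red higher), with genes in rows by role and the WT arrays drawn in the order WT 1, WT 4, WT 3, WT 2. WT 1 is the lowest array for all 41 genes, WT 2 the highest for 40, and the βUCP2Tg columns are paler.

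The step from WT 1 to WT 4 had a median of 1.71 on the log2 scale (0.28 to 3.1), the step from WT 4 to WT 3 a median of 1.91 (0.71 to 3.01), and the step from WT 3 to WT 2 a median of 0.30 (0.054 to 0.69). WT 3 and WT 2 were therefore close together at the top, with WT 4 between them and WT 1. All 4 βUCP2Tg samples lay between WT 4 and WT 3 for 30 of the 41 genes. All 4 were above both WT 1 and WT 4 for 39 genes, the exceptions being *Isg20* and *H2-K1*, against 12.2% of all genes, and all 4 were below both WT 2 and WT 3 for 32, against 23.7%. The single gene with a βUCP2Tg sample outside the WT range was *Ifi27*, at 5.74 in βUCP2Tg 2 and 5.62 in WT 2. Among the βUCP2Tg samples, βUCP2Tg 1 was lowest for 39 genes, all but *Irf1* and *Mx2*, against 21.5% of all genes, while the highest was βUCP2Tg 2 for 23, βUCP2Tg 4 for 17 and βUCP2Tg 3 for 1.

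The sensors *Ifih1* (MDA5) and *Ddx58* (RIG-I), which detect double-stranded viral RNA in the cytosol, and *Zbp1*, which detects left-handed nucleic acid and can trigger necroptosis, were each lowest in WT 1. *Zbp1* had the largest fold change of the sensors and levels of 0.072, 1.37, 0.95 and 1.04 in βUCP2Tg 1 to 4. In WT 1 to 4 it was −2.77, 1.59, 1.31 and −0.98, so the βUCP2Tg values all fell inside the WT range. Its log2 fold change was 1.07 (SE 0.91, 95% interval −1.01 to 3.15) with an adjusted p of 0.486 (limma), and without WT 1 it was 0.22. *Ifih1* ran from 0.17 in WT 1 to 3.28 in WT 2 and from 1.78 to 2.79 in βUCP2Tg. *Ddx58* ran from 2.29 to 5.65 in WT and from 4.26 to 4.96 in βUCP2Tg. For both genes βUCP2Tg 1 was the low sample of its group, with the next lowest at 2.64 for *Ifih1* and 4.84 for *Ddx58*.

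Of the 6 signalling genes and regulators, the same WT order held for the transcription factors *Stat2*, *Irf9*, *Irf7* and *Irf1*, for *Usp18*, which removes ISG15 from proteins and dampens receptor signalling, and for *Nlrc5*, the transactivator of class I genes. *Irf7*, which drives the later wave of type I interferon production, had levels of 5.99, 6.92, 6.58 and 6.9 in βUCP2Tg 1 to 4 and 2.87, 7.34, 6.94 and 5.03 in WT 1 to 4. WT 1 was 22.2-fold below WT 2, and the log2 fold change between genotypes was 1.05 (SE 0.89, 95% interval −1.0 to 3.1), with an adjusted p of 0.488 (limma), and without WT 1 it was 0.16. *Usp18* showed the same shape, with 4.11, 4.82, 4.6 and 4.7 in βUCP2Tg and 1.07, 5.34, 5.06 and 2.91 in WT. *Nlrc5* had 0.49, 1.17, 1.2 and 1.8 in βUCP2Tg and −1.35, 2.76, 2.35 and −0.068 in WT, a 17.3-fold distance from WT 1 to WT 2.
The partners of the ISRE-binding complex were less spread than *Irf7*. *Stat2*, whose window is printed above, ran from 2.2 in WT 1 to 5.41 in WT 2, a 9.23-fold distance, and *Irf9* from 2.19 to 4.9, a 6.56-fold distance. *Irf1*, an early responder to interferon-γ with a GAS match and no ISRE match in its windows, was nearly level across βUCP2Tg at 4.79, 4.9, 4.72 and 4.72, a range of 0.18. Its WT values were 3.93, 5.97, 5.53 and 4.48, so WT 1 and WT 4 lay below the βUCP2Tg samples and WT 3 and WT 2 above them.

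The 18 antiviral effectors held the widest distances, with a median of 27.7-fold between WT 1 and WT 2, and all 18 had a log2 fold change above 0. *Oas3*, a synthetase of the 2′-5′ oligoadenylates that activate RNase L, and *Bst2* (tetherin, which holds budding virions at the cell surface) had the largest fold changes of this role set, with no order between them, and *Bst2* had the smallest p. *Oas3* levels were −2.99, −1.38, −1.79 and −1.8 in βUCP2Tg 1 to 4 and −6.07, −1.32, −1.74 and −4.36 in WT 1 to 4, and the probe was not well above background on WT 1, so its WT mean and fold change are not exact. βUCP2Tg 1 was the low sample of its group here, yet above WT 1 and WT 4. The log2 fold change was 1.38 (SE 1.0, 95% interval −0.91 to 3.68), with an adjusted p of 0.415 (limma), and without WT 1 it was 0.48. *Bst2* levels were 3.12, 4.45, 3.97 and 4.38 in βUCP2Tg and −0.15, 4.47, 4.35 and 1.74 in WT, with a log2 fold change of 1.38 (SE 0.98, 95% interval −0.87 to 3.63) and an adjusted p of 0.407 (limma), and without WT 1 this fold change was 0.46. WT 2 was the highest sample for *Bst2*, with βUCP2Tg 2 next to it.
The following effectors were picked for description after their values were seen. *Isg15*, a ubiquitin-like modifier, had levels of 4.77, 5.5, 5.25 and 5.57 in βUCP2Tg 1 to 4 and 1.31, 6.7, 6.22 and 3.92 in WT 1 to 4. WT 1 was thus 42-fold below WT 2, while the βUCP2Tg samples stayed within 0.80 of each other on the log2 scale. *Ifit2* and *Ifit3*, which belong to a family that binds foreign RNA, had the largest distances, 64.7-fold and 60.5-fold. *Ifit3* was 4.97, 6.05, 5.66 and 5.89 in βUCP2Tg and 0.80, 6.71, 6.45 and 3.72 in WT. Its probe may also take signal from the near-identical copy *Ifit3b*, and whether it does was not tested. *Rsad2* (viperin, which makes a chain-terminating nucleotide) was 4.71, 5.25, 5.01 and 5.23 in βUCP2Tg and 1.23, 6.71, 6.25 and 3.77 in WT. *Mx1* and *Mx2*, of the dynamin-like GTPase family, had 41.6-fold and 43-fold distances from WT 1 to WT 2. Their log2 fold changes between genotypes were only 0.32 and 0.19, and turned to −0.71 and −0.87 without WT 1. For these genes the βUCP2Tg samples sat above WT 4 and below WT 3, at 2.03, 2.31, 2.05 and 2.47 for *Mx1* against 1.08 in WT 4 and 3.52 in WT 3. The narrowest distances of the role set were those of *Ifi27* (3.25-fold) and *Isg20*, an exonuclease (4.24-fold). *Isg20* had a log2 fold change of 0.0050 and an unadjusted p of 0.991 (limma), and −0.40 without WT 1. The remaining effectors, *Ifit1*, *Ifi35*, *Ifi44*, *Oas1a*, *Oas2*, *Oasl1*, *Oasl2* and *Xaf1*, had distances between 5.7-fold and 35.7-fold and unadjusted p-values between 0.213 and 0.568 (limma).

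The GTPases comprise *Gbp2*, *Gbp3* and *Gbp7*, guanylate-binding proteins that coat intracellular pathogens, and *Igtp*, *Irgm1* and *Iigp1*, immunity-related GTPases that act on the vacuoles of parasites. Their median distance between WT 1 and WT 2 was 23.4-fold, and for all 6 the βUCP2Tg samples lay between WT 4 and WT 3. Of the genes well above background on every array, *Iigp1* had the largest fold change of the set when no array was left out. Its levels were 3.32, 3.94, 3.72 and 3.56 in βUCP2Tg 1 to 4 and −1.39, 4.43, 4.17 and 1.64 in WT 1 to 4, so that WT 1 was 56.5-fold below WT 2 and the βUCP2Tg samples were within 0.62 of each other. The log2 fold change was 1.42 (SE 1.16, 95% interval −1.24 to 4.08), with an adjusted p of 0.47 (limma). Without WT 1 it was 0.22, below the values of *Oas3* and *Bst2* under the same omission, 0.48 and 0.46. *Gbp3*, with overlapping ISRE matches, had 2.46, 3.82, 3.44 and 3.82 in βUCP2Tg and −0.74, 4.95, 4.45 and 1.61 in WT. *Gbp7* showed the smallest genotype difference of all 41 genes, a log2 fold change of 0.0025 with an unadjusted p of 0.997 (limma), although WT 1 and WT 2 differed 12.9-fold, and without WT 1 its log2 fold change was −0.70. *Gbp2*, *Igtp* and *Irgm1* had distances of 31.6-fold, 17.4-fold and 10.5-fold.

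The class I molecule pairs a polymorphic heavy chain, *H2-K1* or *H2-D1*, with the invariant light chain *B2m*. *B2m* levels were 4.55, 5.55, 5.31 and 5.35 in βUCP2Tg 1 to 4 and 3.22, 5.92, 5.83 and 4.23 in WT 1 to 4. WT 1 and WT 4 were below every βUCP2Tg sample and WT 2 and WT 3 above every one. The log2 fold change of *B2m* was 0.39 (SE 0.59, 95% interval −0.96 to 1.75), with an adjusted p of 0.71 (limma), and without WT 1 it was −0.14. *H2-K1* levels were 6.93, 7.36, 7.13 and 7.07 in βUCP2Tg and 6.58, 7.74, 7.66 and 6.95 in WT, the narrowest WT range of the 41 genes. Here βUCP2Tg 1 was below WT 4 and the log2 fold change was −0.11 (SE 0.26, 95% interval −0.71 to 0.49), with an adjusted p of 0.819 (limma), and without WT 1 it was −0.33. *H2-D1* levels were 5.4, 5.9, 5.73 and 5.84 in βUCP2Tg and 4.87, 6.28, 6.1 and 5.29 in WT, and its log2 fold change was 0.081 (SE 0.31, 95% interval −0.62 to 0.79), with an adjusted p of 0.891 (limma), and without WT 1 it was −0.17. The heavy chains belong to a family of near-identical genes, so a probe of one may take signal from another, which was not tested.

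The 5 genes for making and loading class I peptides were the immunoproteasome subunits *Psmb8* and *Psmb9*, the peptide transporter subunits *Tap1* and *Tap2*, and *Tapbp* (tapasin), which bridges the transporter to the class I molecule. *Psmb9* had the largest fold change of these 5, with levels of 2.75, 3.65, 3.57 and 3.59 in βUCP2Tg 1 to 4 and 1.16, 3.8, 3.49 and 1.98 in WT 1 to 4. βUCP2Tg 2 to 4 lay close together and βUCP2Tg 1 below them. The log2 fold change was 0.78 (SE 0.57, 95% interval −0.51 to 2.08), with an adjusted p of 0.413 (limma), and without WT 1 it was 0.30. *Tap1* had a wider WT range than *Tap2*, 14-fold against 5.03-fold, with 0.40, 4.21, 3.74 and 1.88 in WT 1 to 4 and 2.69, 3.17, 3.14 and 3.19 in βUCP2Tg 1 to 4. *Psmb8* ran from 1.54 to 4.2 in WT and from 2.88 to 3.95 in βUCP2Tg. *Tapbp* had the smallest distance of the 5, 2.42-fold, and a log2 fold change of 0.19, or −0.018 without WT 1.

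The spread within WT was larger for these genes than for most of the array, as a description with no test. The SD over the 4 WT samples exceeded the SD over the 4 βUCP2Tg samples for 41 of 41 genes, against 75.6% of all genes. Its median was 1.89 on the log2 scale for the 41 genes and 0.23 for all genes tested, while the SD over βUCP2Tg had medians of 0.33 and 0.15. Of the 100 genes with the largest WT SD among the 17857 tested, 19 belonged to the set, and 35 of the 41 were among the 500 largest. *H2-K1* ranked lowest of the 41, at place 2161. Without WT 1 the median WT SD was 1.24 for the 41 genes and 0.18 for all genes, the SD over WT still exceeded that over βUCP2Tg for 41 of 41 against 62.2% of all genes, and 5 of the 41 were among the 100 largest and 32 among the 500 largest. Leaving out WT 2, WT 3 or WT 4 gave medians of 1.83, 2.09 and 2.26 for the 41 genes. The order of the other 3 WT samples without WT 1 held for 41 of 41 genes and for 20% of all genes. The WT order of WT 1, WT 4, WT 3 and WT 2 from low to high held for 10.2% of all genes, the reverse order for 14.8%, and these shares are a description of 8 shared arrays.

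**Figure D3:**
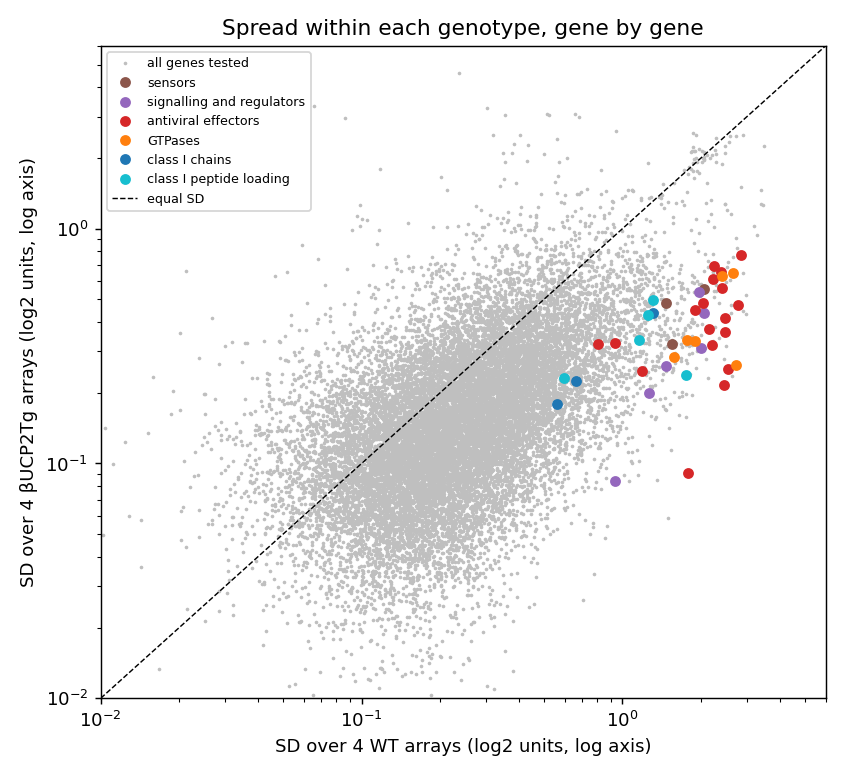
SD over the 4 WT arrays (x axis) against the SD over the 4 βUCP2Tg arrays (y axis), in log2 units on log axes, for all genes tested (grey) and the 41 genes coloured by role. All 41 lie below the dashed line of equal SD, at WT SDs from 0.56 to 2.84 and βUCP2Tg SDs from 0.084 to 0.77.

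A further 31 probes on the array covered 26 of the 41 genes. Of these, 26 gave the same WT order, against 10.2% of all genes, and 22 gave a fold change of the same sign as the probe used. A call was reached by 0 and an unadjusted p under 0.05 by 0 (limma), against 0.482% and 24.5% of all genes. The second probe of *B2m* had a log2 fold change of −0.72 and that of *Mx2* −0.82, both opposite in sign to the probe used, and both kept the WT order. The same held for the second probe of *Psmb9*, at −0.33 against 0.78 for the probe used, and that of *Ifi44*, at −0.14 against 1.23. The second probe of *Iigp1* kept the sign, at 0.15 against 1.42, but not the WT order.

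A list of 93 further genes of the same pathway (ligands, receptors and kinases, sensors, signalling genes, targets and class I genes) had 84 members that were tested. Of these, 0 were called, and 5 had an unadjusted p under 0.05 (limma), 3 higher and 2 lower in βUCP2Tg, against 12.9% and 11.6% of all genes. The 5 were *Cxcl9*, a T cell chemokine (2.39, adjusted p = 0.115), *Tmem173*, which encodes STING (0.45, adjusted p = 0.142), the receptor kinase *Tyk2* (0.33, adjusted p = 0.145), the phosphatase *Ptpn11* (−0.33, adjusted p = 0.109) and the class I gene *H2-Q4* (−0.35, adjusted p = 0.144), as log2 fold changes. *Cxcl9* levels were −2.32, −1.78, −1.29 and −2.06 in βUCP2Tg 1 to 4 and −6.43, −3.75, −2.38 and −4.44 in WT 1 to 4, with no overlap between the groups, although βUCP2Tg 1 was next to WT 3. The *Cxcl9* probe was not well above background on WT 1, so this fold change is not exact, and without WT 1 it was 1.66 (adjusted p = 0.0525, limma). Over the 84 genes, groups without overlap were found for *Cxcl9* and *Ptpn11* alone, against 13.1% of all genes.
The WT order of the 41 genes was also seen in 58 of the 84 (69%), and in 31 of the 36 further targets. Of the receptors and kinases 5 of 9 had it, and of the further class I genes 9 of 15. Of the 5 ligands tested 1 had it, *Ifnb1*, which was well above background on 6 of 8 arrays, with −5.61, −4.36, −6.79 and −3.45 in βUCP2Tg and −8.42, −0.95, −1.65 and −4.63 in WT. The other 4, *Ifna1*, *Ifna2*, *Ifna5* and *Ifnl3*, were well above background on all 8 arrays and had other orders. *Ifng* was well above background on 0 of 8 arrays.

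The marker lists of other cell types held few genes in this order. The mean level of the 41 genes was 3.35, 4.11, 3.9 and 4.1 in βUCP2Tg 1 to 4 and 0.98, 4.85, 4.52 and 2.61 in WT 1 to 4. For 12 leukocyte markers the mean was −0.12, −0.62, −0.19 and −0.44 in βUCP2Tg and 0.41, −0.27, −0.037 and 0.36 in WT, where WT 1 was the highest sample and not the lowest, and 0 of 12 had the WT order of the 41 genes. Within WT, however, *Cd14* (0.72, 1.8, 1.89 and 1.77 in WT 1 to 4) and *Cd68* (0.59, 1.57, 1.3 and 1.34) were lowest in WT 1. No other marker of this list was. All 12 were well above background on all 8 arrays, with the pan-leukocyte gene *Ptprc* between 0.69 and 1.86. Of the 12, 1 was called, against 0.482% of all genes. This was *Cd14*, a receptor for bacterial lipopolysaccharide, lower in βUCP2Tg with a log2 fold change of −2.1 and an adjusted p of 0.048 (limma). The call did not hold without βUCP2Tg 1, 2 or 3 or without WT 3, where 0 probes of the whole table were called lower. The part of leukocytes in the result was not tested. An unadjusted p under 0.05 was reached by 1 gene higher in βUCP2Tg, the complement gene *C1qa* (0.66, adjusted p = 0.0823, limma), and by 4 lower, *Cd14*, *Cd68* (−0.88, adjusted p = 0.0887), *Laptm5* (−0.86, adjusted p = 0.11) and *Itgam* (−0.34, adjusted p = 0.185). The order was also found in 0 of 5 class II genes, 0 of 8 endothelial genes, and 0 of the 4 T and NK cell markers that were tested. Of the class II genes, *Ciita* departed from it only in the places of WT 2 and WT 3. Its levels were −3.85, −1.97, −1.79 and −3.09 in WT 1 to 4, with all βUCP2Tg samples between WT 4 and WT 2. The other class II genes departed further. Of the latter list *Cd8a* was well above background on 0 of 8 arrays, *Nkg7* on 1 and *Gzmb* on 2.

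Digestive enzyme genes of acinar cells and genes of the hypoxia response had other orders. The mean of 8 acinar genes was −0.38, 1.42, 0.11 and 4.15 in βUCP2Tg 1 to 4 and 3.3, 4.36, 4.93 and 0.072 in WT 1 to 4, high in WT 2 and WT 3 as the 41 genes were, but also in WT 1 and βUCP2Tg 4. The mean of 10 hypoxia genes was 0.81, 0.71, 0.72 and 1.89 in βUCP2Tg and 1.49, 2.12, 2.2 and 2.29 in WT. Of these, 7 were lower in βUCP2Tg at an unadjusted p under 0.05, against 11.6% of all genes, with adjusted p-values of 0.0823 or more (limma), and 2, *Vegfa* and *Ddit4*, had groups without overlap, against 13.1%. Of the 8 acinar genes 0 had an unadjusted p under 0.05 (limma). Neither list had a gene in the WT order of the 41, and their part in the result was not tested. The mean of 10 β-cell genes was 5.41, 5.28, 5.22 and 5.07 in βUCP2Tg and 5.56, 5.04, 5.15 and 5.36 in WT, of which 2 of 10 had the WT order of the 41 genes and 6 of 10 exactly the reverse, among them *Pdx1* at 4.06, 2.88, 3.12 and 3.69 and *Slc2a2*, the glucose transporter GLUT2, at 0.77, −0.95, −0.59 and −0.19 in WT 1 to 4. In whole islets, fewer cells of a type and less RNA per cell cannot be told apart.

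**Figure D4:**
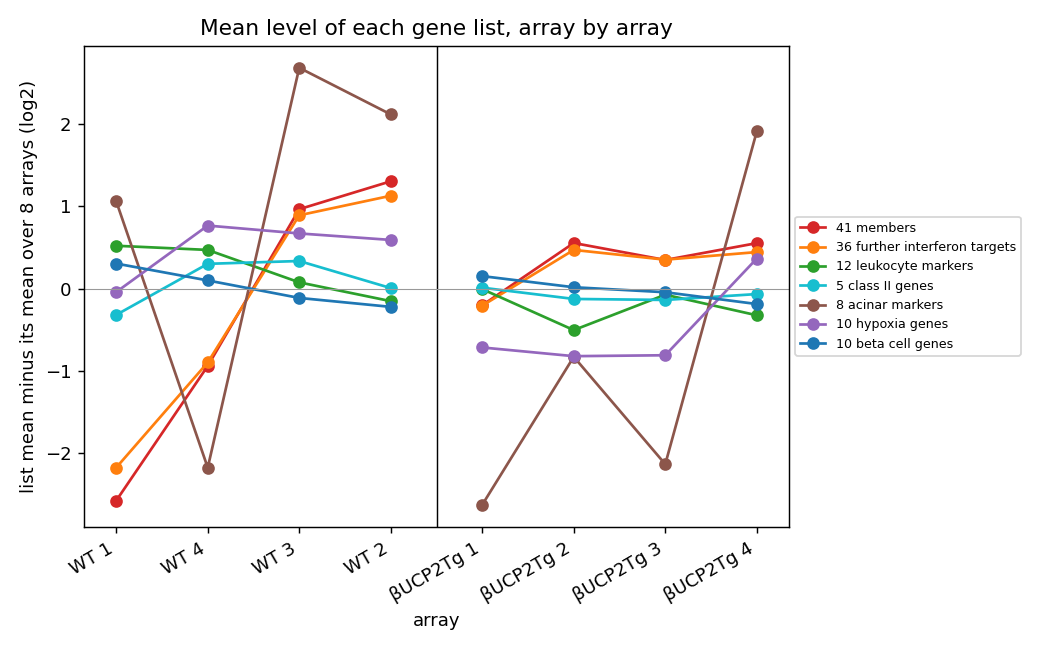
Mean level of 7 gene lists on each array, as log2 difference from the mean of the list over the 8 arrays, with WT on the left in the order WT 1, WT 4, WT 3, WT 2 and βUCP2Tg on the right. The 41 genes and the 36 further interferon targets climb together across WT, while the leukocyte and β-cell lists decline slightly and the acinar list follows another order.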

How the data were processed

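Islet RNA of 4 βUCP2Tg and 4 WT samples was hybridised to single-colour Agilent arrays. The authors deposited the scanner output of each array, made with Agilent Feature Extraction (version 9.1 in the submitters' processing notes, 10.7.3.1 in the file headers), in which spot intensity is linear and background-subtracted. They also deposited normalized log2 values from GeneSpring, which equal log2 of the processed signal less a constant for each array. The same file holds columns of the authors' own comparison, a fold change and its p-values, which were not used.

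Control spots, and on each array 48 to 106 outlier spots among the 59305 others, were left out, and log2 signals were scaled by subtracting each array's 75th percentile and averaged over replicate spots. A probe counted on an array when 50% of its spots there were well above background. The 35363 of 56605 probes that counted on at least 4 arrays were tested in R 4.3.3 with lmFit and eBayes of limma 3.58.1. P-values were adjusted by Benjamini-Hochberg over all probes tested, and a call needed an adjusted p under 0.05 and a fold over 1.5. The methods' t-test is a two-tailed Student's test on the same values. Files were read with version 1.17.8 of the R package data.table, plots were drawn with matplotlib 3.10.9, and the fit was tested on simulated data. The number of arrays limits the precision.

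Values on all arrays are given for genes with the largest fold change or smallest p of their role set and for the class I chains. Further genes of the set with such values, among them *Usp18*, *Nlrc5*, *Irf1*, *Gbp3* and *Tap1*, were chosen after their values were seen. The same holds for *Pdx1* and *Slc2a2* of the β-cell list. Of the 93 related genes, those called and the 5 with the smallest p are named, beside the ligands, which were picked afterwards. Of these 93, 4 had no probe and 5 were not tested. The members, lists and marker genes were chosen with earlier results of these data known. Promoter sequences are from RefSeq (GRCm38.p6). Alternatives covered filters, normalization, background correction, the deposited values, the test, the probes of a gene, a replicate block and leaving out arrays. The WT spread with arrays left out was added after seeing the data.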

Additional observations from a re-analysis of the deposited data

Results flagged for a closer look

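Within the 82 groups of 4 samples examined (41 genes in each genotype), 7 had a sample far from the other 3, with a gap to its neighbour that, as a share of the range of the group, passed Dixon's 95% critical value for 4 samples. Chance alone flags about 1 in 20 groups, or 4.1 of 82. The 41 genes were read on the same arrays and vary together, so the 82 groups are not independent. The number flagged can therefore not be judged against 4.1. In 6 of the 7 the sample was βUCP2Tg 1, which lay below the others. The gap was 0.852 of the range for *Ifih1*, 0.831 for *Ddx58*, 0.928 for *Isg20*, 0.838 for *Igtp*, 0.886 for *Tap1* and 0.911 for *Psmb9*. In the other, *Mx2*, βUCP2Tg 4 lay above the rest with a gap of 0.874. No WT group met the criterion.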

How the results depend on the processing

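With 4 arrays a group and WT SDs of 0.56 to 2.84 on the log2 scale, the fit could not resolve small differences, and standard errors ran from 0.26 to 1.25. Under every alternative run, 0 of the 41 genes were called, 0 had an unadjusted p under 0.05 and 0 had groups without overlap, and *Ucp2* remained called. The median log2 fold change of the 41 genes (0.56) stayed above 0 under every alternative that kept all arrays. With arrays left out, singly or βUCP2Tg 4 and WT 1 together, it ran from −0.14 to 1.08. It was −0.072 without WT 1. The median SD over WT of the 41 genes ran from 1.24 to 2.26 and their median WT range from 5.12-fold to 17.4-fold, both lowest without WT 1. Over the whole table, 73 probes were called higher and 72 lower with all arrays, 1787 and 1972 without WT 1, and 231 and 585 under normexp background correction.

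Of the 84 related genes, the 5 with an unadjusted p under 0.05 became 3 under quantile normalization and 11 under normexp, and ran from 3 to 15 with arrays left out, the highest without WT 1. The number called was 1 under normexp and under the methods' t-test without adjustment, and 0 to 1 with arrays left out. Single genes changed sign under normexp (*Gbp7*, −0.094) and when all probes of a gene were averaged (*Nlrc5* −0.041, *Mx2* −0.31, *B2m* −0.16 and *H2-K1* 0.0083). With arrays left out, the log2 fold change of the genes that changed sign ran as follows. It ran from −0.11 to 1.03 for *Ifih1*, from −0.12 to 1.05 for *Ddx58*, from −0.48 to 0.69 for *Stat2*, from −0.55 to 0.13 for *Irf1*, from −0.24 to 0.71 for *Irf9* and from −0.73 to 0.85 for *Nlrc5*. It ran from −0.46 to 1.3 for *Ifit1*, from −0.81 to 1.5 for *Ifit2*, from −0.066 to 1.99 for *Ifit3*, from −0.44 to 1.46 for *Isg15*, from −0.46 to 0.30 for *Isg20* and from −0.27 to 1.64 for *Oas2*. It ran from −0.31 to 1.01 for *Oasl1*, from −0.80 to 1.08 for *Mx1*, from −1.07 to 0.94 for *Mx2*, from −0.59 to 1.3 for *Rsad2*, from −0.14 to 1.5 for *Xaf1* and from −0.10 to 1.67 for *Gbp2*. It ran from −0.43 to 1.61 for *Gbp3*, from −0.84 to 0.53 for *Gbp7*, from −0.11 to 1.3 for *Igtp*, from −0.51 to 0.74 for *Irgm1*, from −0.19 to 0.76 for *B2m* and from −0.33 to 0.058 for *H2-K1*. It ran from −0.21 to 0.30 for *H2-D1*, from −0.28 to 1.04 for *Tap1*, from −0.097 to 0.72 for *Tap2*, from −0.018 to 0.41 for *Tapbp* and from −0.13 to 0.88 for *Psmb8*. For the others it ran from 0.16 to 1.67 for *Zbp1*, from 0.057 to 1.65 for *Irf7*, from 0.072 to 1.54 for *Usp18*, from 0.10 to 0.71 for *Ifi27*, from 0.059 to 0.91 for *Ifi35* and from 0.21 to 1.96 for *Ifi44*. It ran from 0.080 to 1.52 for *Oas1a*, from 0.42 to 2.06 for *Oas3*, from 0.29 to 1.79 for *Oasl2*, from 0.33 to 2.0 for *Bst2*, from 0.22 to 2.16 for *Iigp1* and from 0.24 to 1.18 for *Psmb9*.

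Whether samples with the same replicate number were paired is not settled here. Deviations of samples with the same number from their group means correlated at 0.44, −0.047, −0.0086 and −0.24. With the replicate number as a block, the lowest unadjusted p among the 41 genes was 0.0766, the lowest adjusted p was 0.264, the median log2 fold change stayed at 0.56, and 13 probes were called higher and 1 lower over the table. The causes of these changes were not tested.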

Other observations

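The 20 genes outside the lists with the largest WT SD ranked between 1 and 31 of 17857. Of these, 15 had the same WT order as the interferon genes. They were *Csf3*, *Saa3*, *Cfb*, *1110032F04Rik*, *BC023105*, *Apol9b*, *Ifit3b*, *Cxcl1*, *Serpina3f*, *Nos2*, *Ifit1bl1*, *Gm4951*, *Mab21l3*, *Slfn4* and *Hamp*, of which *Ifit3b* and *Ifit1bl1* belong to the family of *Ifit1*. Their probes were well above background on 4 to 8 of the 8 arrays, so ranks that rest on arrays below background are not exact. *Csf3* (G-CSF), well above background on 4 arrays, had levels of −8.39, −1.26, −1.82 and −6.35 in WT 1 to 4 and −6.58, −2.27, −4.59 and −7.3 in βUCP2Tg 1 to 4. *Saa3*, an acute-phase protein, well above background on 6, had −7.83, −0.46, −2.02 and −6.12 in WT and −4.88, −2.52, −2.87 and −4.87 in βUCP2Tg. The probes of the next 3 genes were well above background on all 8 arrays. The complement gene *Cfb* had −3.78, 3.62, 2.3 and −0.60 in WT and −1.0, 0.96, 0.90 and 0.75 in βUCP2Tg, and the chemokine gene *Cxcl1* had −1.91, 4.29, 3.3 and 0.29 in WT and 0.34, 2.96, 0.88 and −0.60 in βUCP2Tg. *Nos2*, the inducible nitric oxide synthase, had −3.71, 2.34, −0.047 and −2.73 in WT and −2.55, −0.58, −2.22 and −2.4 in βUCP2Tg. These 5 genes were chosen after their values were seen, and no difference between the genotypes is claimed for them.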
